A study of Danio rerio with 24 samples.

Results

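The 10 genes described here encode the enzymes and signalling proteins that carry the light response of cone photoreceptors beyond the opsin. They were chosen by name with earlier results of these data known, and all 10 symbols were found among the 32520 genes measured. They are gnat2, gnb3b and gngt2b, which encode the cone transducin subunits, pde6c and pde6ha of the cone phosphodiesterase, cnga3a of the cone cyclic nucleotide-gated channel, the opsin kinases grk7a and grk7b, and the cone arrestins arr3a and arr3b.

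In a cone, a light-activated opsin switches on transducin, whose alpha subunit relieves the inhibition of phosphodiesterase by its small gamma subunit. The phosphodiesterase then hydrolyses cyclic GMP, the cation channel of the outer segment closes and the cell hyperpolarises. Shut-off begins when an opsin kinase phosphorylates the activated opsin and an arrestin binds to it. Zebrafish larvae rely mainly on cones for vision at this stage, and the a and b copies of the kinase and of the arrestin stem from gene duplication in fish.

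RNA was sequenced from wild-type zebrafish (Danio rerio), labelled whole embryo and taken 120 hours after fertilisation (120 hpf), when larvae swim freely. From 0.75 hpf onward the animals were kept with 0, 0.0025 or 25 µM of the perfluorinated alkyl acid PFHxS, and all groups, controls included, carried 0.1% dimethyl sulfoxide (DMSO). At every dose the animals lived in constant darkness (24 h a day) or in a daily light-dark cycle (14 h light, 10 h dark), giving 6 groups of 4 libraries and 24 libraries in all. The series asks whether the photoperiod alters the effect of PFHxS on development. The photoperiod of each library was taken from its title, since the treatment text names darkness for every sample. Dark libraries and cycle libraries also carry different library names and sit in separately scaled tables, so photoperiod and library series cannot be told apart wherever the 2 are compared. The number of larvae in a library is not given, and no label assigns replicates to separate clutches. The p-values therefore reflect only how far these libraries spread, and that spread may be technical.

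Values are FPKM as the authors deposited them, that is, fragments of a gene relative to its length and to a size set for the library. The size implied by the values was 0.915 to 1.05 times the fragments on genes of that library, so it was not the plain total. Dark libraries held 8.44 to 14.5 M fragments on genes and cycle libraries 10.1 to 18.5 M (M, mega). Log2 values of libraries within a group correlated with r from 0.930 to 0.958. No gene of the 10 was at 0 in any library, and the fragments behind a value ran from 12 for grk7b to 7160 for gnat2. Fold changes are differences in log2(FPKM + 0.1) ± SE from limma, and a gene is said to rise or fall where the Benjamini-Hochberg adjusted p over all genes tested was below 0.05. All 10 genes passed the expression filter in both photoperiods.

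The label was checked against cone opsins. The ultraviolet opsin opn1sw1 was at 1311 ± 59.6 FPKM (SD, n = 4) in dark controls and 807 ± 65.3 FPKM in cycle controls, and the red opsin opn1lw2 was at 138 ± 33.0 and 196 ± 28.9 FPKM. Of 8 cone opsins 5 passed the filter, while opn1lw1, opn1mw3 and opn1mw4 lay below it and were at 0 in some libraries. In RNA from whole larvae, fewer cones and less RNA per cone cannot be told apart.

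The transducin gamma subunit gngt2b had the highest level and the kinase grk7b the lowest in all 6 groups. In dark controls the order of mean FPKM was gngt2b at 636, gnat2 at 255, gnb3b at 204, pde6ha at 80.9, pde6c at 65.2, arr3a at 39.0, grk7a at 33.4, arr3b at 18.7, cnga3a at 4.59 and grk7b at 2.11. The 4 libraries of each gene lay wholly above those of the next gene in this order, except that arr3a overlapped grk7a. In cycle controls the order was gngt2b at 540, gnat2 at 108, gnb3b at 108, arr3a at 47.1, pde6c at 42.4, pde6ha at 23.3, arr3b at 15.5, grk7a at 10.3, cnga3a at 3.89 and grk7b at 1.24. There gnat2 overlapped gnb3b, arr3a overlapped pde6c, and arr3b overlapped grk7a. FPKM is scaled by length, and these genes measured 580 bases (gngt2b) to 4527 bases (pde6c) in the tables.

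**Figure D1:**
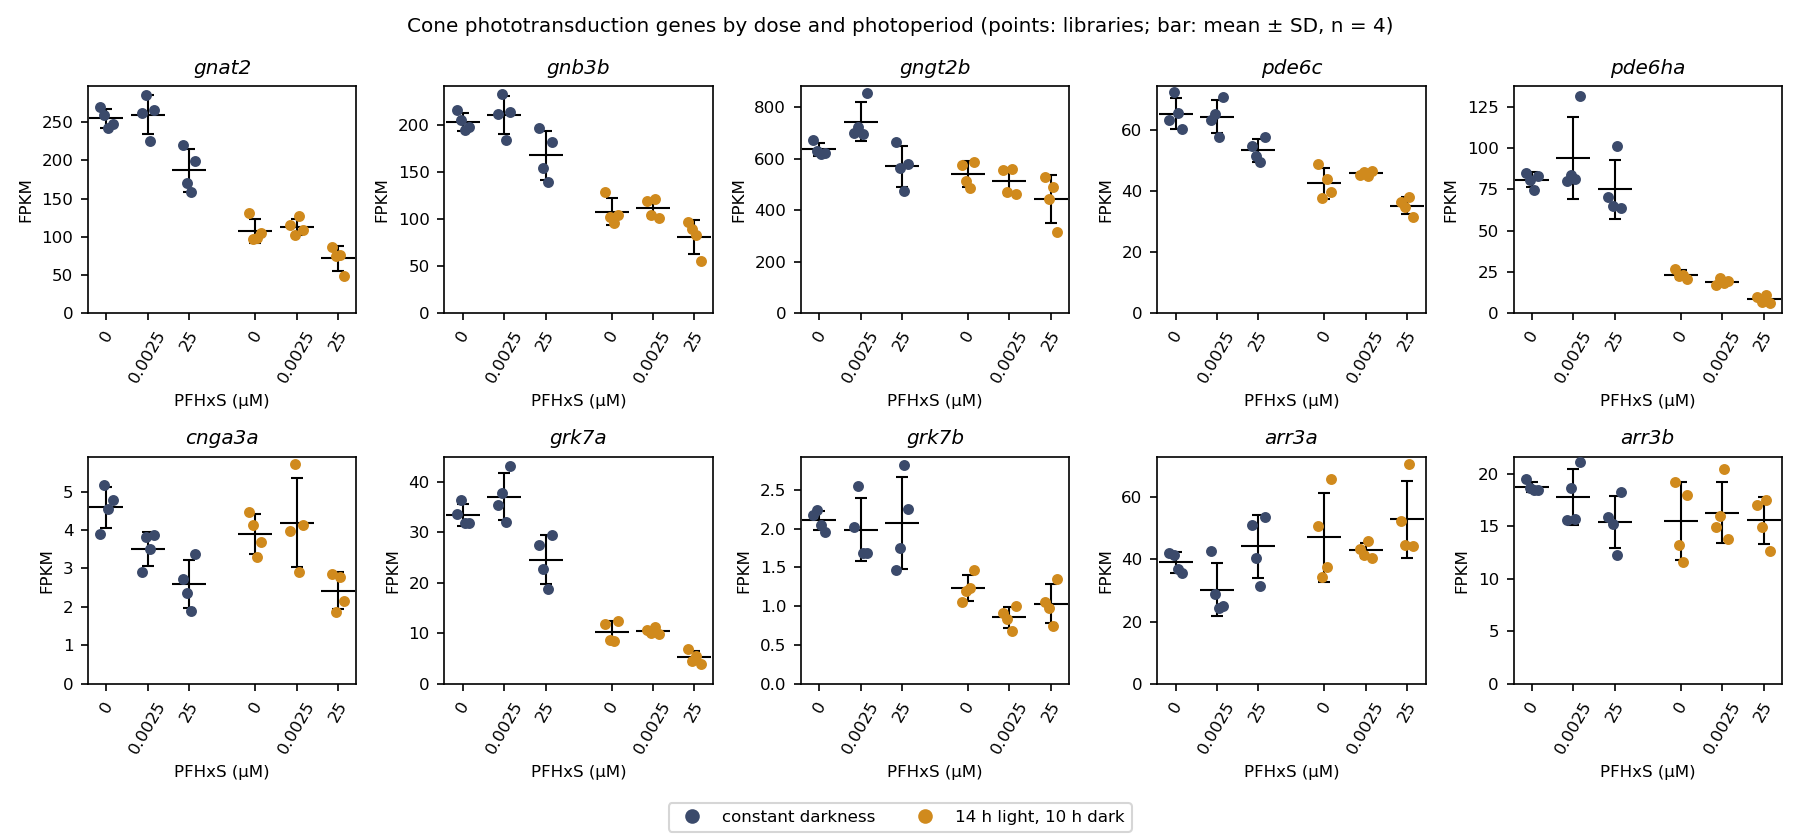
Level of each of the 10 genes in FPKM (y axis, linear, from 0) against PFHxS dose in µM (x axis), with 1 point per library and a bar for mean ± SD (n = 4). For gnat2, gnb3b, pde6c, pde6ha, grk7a and grk7b the dark points at each dose lie wholly above the cycle points, and at 25 µM gnat2, grk7a and cnga3a lie wholly below the controls of their own photoperiod.

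At 25 µM PFHxS in constant darkness, 4 of the 10 genes fell and none rose. The genes that fell were gnat2, pde6c, cnga3a and grk7a, so the alpha subunit of transducin, the catalytic phosphodiesterase subunit, the channel subunit and 1 opsin kinase were each represented. Among all 19058 genes tested, 9.6% fell and 12.2% rose. Of the 10 genes 9 had a negative log2 fold change, with a median of −0.29 against −0.01 over all genes tested. In 5 of the 10, all 4 exposed libraries lay below all 4 controls, as did 11.8% of all genes, with 13.5% above. No gene of the 10 rose at an unadjusted p below 0.05 (0 of 10), and limma-voom on recovered fragments called 0 higher and 5 lower. Over all 19058 genes limma-voom called 2461 higher and 2054 lower. The share of all genes at an unadjusted p below 0.05 was not computed, so counts at that threshold, here and below, have no background.

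Under the light-dark cycle, 2 of the 10 genes fell at 25 µM, pde6ha and grk7a, and none rose. Among 18917 genes tested, 0.629% fell and 1.1% rose. The median log2 fold change of the 10 was −0.36 against −0.02 over all genes, and 8 of the 10 values were negative. In 4 of the 10, all exposed libraries lay below all controls, as did 4.65% of all genes, with 4.83% above. At an unadjusted p below 0.05, 6 of the 10 were lower and 0 higher, and limma-voom called 3 lower and 0 higher. Over all 18917 genes limma-voom called 167 lower and 252 higher, and no share at the unadjusted threshold was computed.

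**Figure D2:**
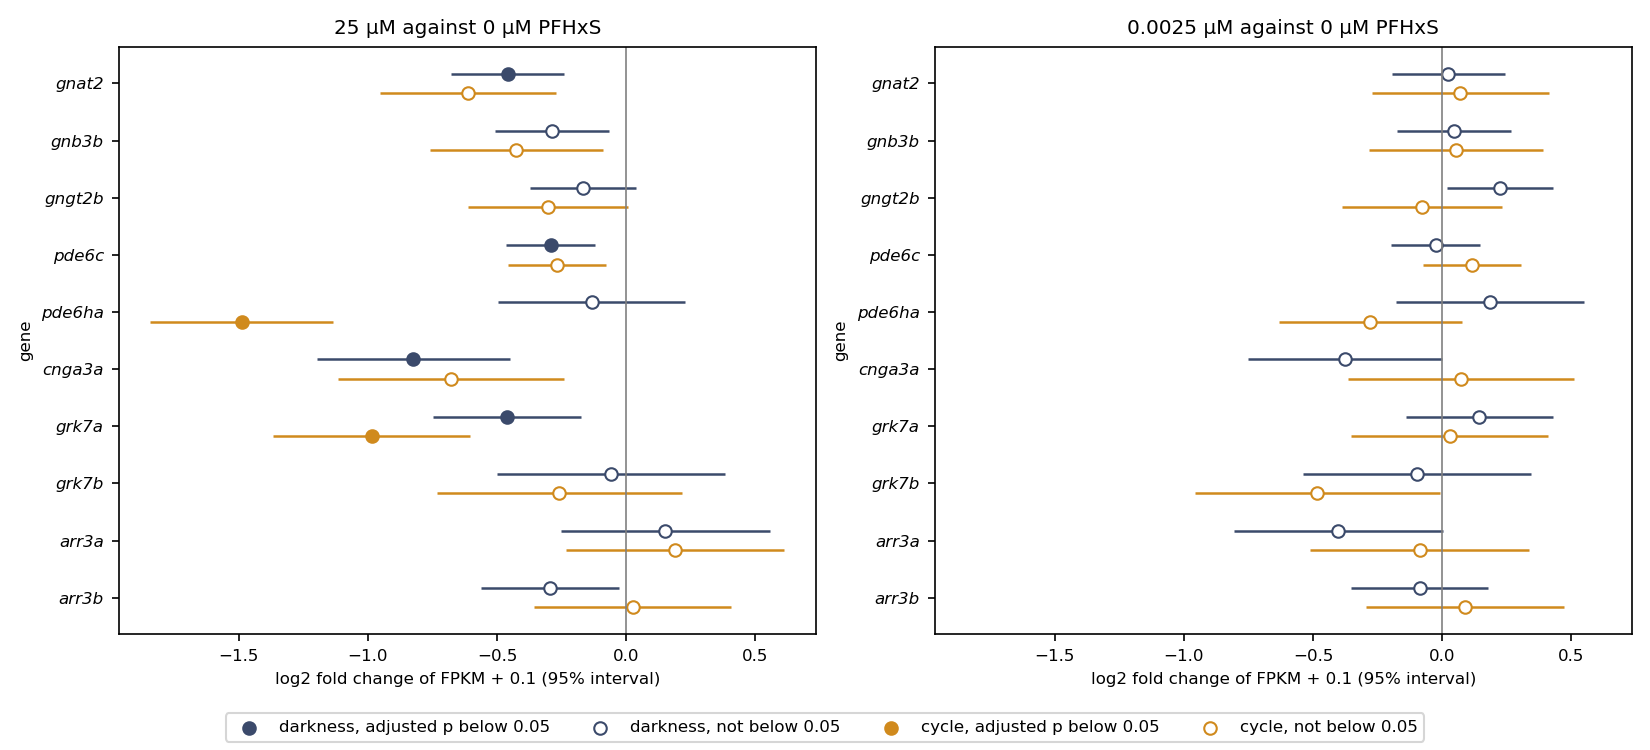
Log2 fold change of FPKM + 0.1 for each dose against the controls of its own photoperiod (x axis) for the 10 genes (y axis), with 95% intervals from limma and filled symbols where the adjusted p was below 0.05. At 25 µM the filled symbols are gnat2, pde6c, cnga3a and grk7a in darkness and pde6ha and grk7a under the cycle, all at negative values, and at 0.0025 µM no symbol is filled.

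The gene gnat2 (ENSDARG00000042529, chromosome 8, 25225590 to 25247284 in the coordinates of the tables, whose genome build is not given in the sources used here) encodes the cone transducin alpha subunit. It was measured in dark controls at 270.0, 259, 242 and 248 FPKM, and in the dark at 25 µM at 220.5, 169.9, 158 and 199 FPKM. All exposed libraries lay below all controls, and the log2 fold change was −0.46 ± 0.10 (limma adjusted p = 0.00599). Under the cycle the controls held 131, 97.8, 98.1 and 106 FPKM and the libraries at 25 µM 86.9, 74.8, 75.9 and 49.1 FPKM. The groups did not overlap here either, but the fold change of −0.61 ± 0.16 did not pass (limma adjusted p = 0.0768). It passed without cycle replicate 1 at 25 µM (adjusted p = 0.0302) and in limma-voom (adjusted p = 0.0488).

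Neither of the other transducin subunits was called. The beta subunit gene gnb3b (ENSDARG00000002696, chromosome 19, 5106226 to 5135345) had 216, 206, 195 and 198 FPKM in dark controls and 197, 155, 139.6 and 182 FPKM at 25 µM. The ranges overlapped through 1 exposed library, and the fold change was −0.29 ± 0.10 (limma adjusted p = 0.0615). It passed in limma-voom (adjusted p = 0.0333), with fragments scaled to library totals (adjusted p = 0.0424) and without dark replicate 1 at 25 µM (adjusted p = 0.0151). Under the cycle the value was −0.43 ± 0.15 (limma adjusted p = 0.194). The gamma subunit gene gngt2b (ENSDARG00000103543, chromosome 12, 3249054 to 3252263) ranged from 617 to 672 FPKM in dark controls and from 473 to 664 FPKM at 25 µM, and its fold changes were −0.17 ± 0.095 in darkness and −0.30 ± 0.14 under the cycle (limma adjusted p = 0.242 and 0.324).

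The catalytic subunit of the cone phosphodiesterase is encoded by pde6c (ENSDARG00000100397, chromosome 12, 5129245 to 5154099). Dark controls held 63.0, 72.2, 65.5 and 60.2 FPKM and dark libraries at 25 µM 54.7, 51.2, 49.4 and 57.5 FPKM. The groups did not overlap, and pde6c fell by 0.29 ± 0.080 on the log2 scale (limma adjusted p = 0.0191). Under the cycle the controls ranged from 37.5 to 48.9 FPKM and the exposed libraries from 31.4 to 38.0 FPKM. Those ranges overlapped, and a fold change of almost the same size, −0.27 ± 0.087, did not pass (limma adjusted p = 0.147).

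The small inhibitory gamma subunit of the same enzyme is encoded by pde6ha (ENSDARG00000102558, chromosome 6, 344423 to 346084), and it had the largest fall of the 10 genes under the cycle. Cycle controls held 27.1, 22.6, 23.1 and 20.5 FPKM, and cycle libraries at 25 µM 9.70, 6.88, 10.9 and 6.24 FPKM. Every exposed library lay below every control, the mean at 25 µM was 36.1% of the control mean, and the log2 fold change was −1.49 ± 0.16 (limma adjusted p = 0.00115). In darkness the controls held 84.9, 80.9, 74.4 and 83.3 FPKM and the libraries at 25 µM 70.4, 64.9, 101 and 63.4 FPKM. There 3 of the 4 exposed libraries lay below all controls and 1 above all controls, and the fold change of −0.13 ± 0.17 did not pass (limma adjusted p = 0.625).

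The channel subunit gene cnga3a (ENSDARG00000070726, chromosome 6, 38791900 to 38818582) had the largest fall of the 10 in darkness. Dark controls held 3.90, 5.17, 4.54 and 4.77 FPKM and dark libraries at 25 µM 2.73, 2.37, 1.88 and 3.38 FPKM. The groups did not overlap, and the log2 fold change was −0.82 ± 0.17 (limma adjusted p = 0.0046). Under the cycle the controls held 4.47, 4.13, 3.30 and 3.68 FPKM and the exposed libraries 2.85, 1.87, 2.79 and 2.15 FPKM. These also did not overlap, but the fold change of −0.68 ± 0.20 had a limma adjusted p of 0.116. Between 80.8 and 157.5 fragments lay behind its mean in these 4 groups, so counting alone gave a coefficient of variation of 7.97% to 11.1% per library.

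Of the opsin kinases, grk7a (ENSDARG00000020602, chromosome 2, 16536453 to 16544343) was the 1 gene of the 10 called lower in both photoperiods. In darkness it went from 33.6, 36.3, 31.8 and 31.8 FPKM in controls to 27.5, 22.6, 18.7 and 29.4 FPKM at 25 µM, and under the cycle from 11.8, 8.75, 8.44 and 12.4 to 6.95, 4.56, 5.52 and 3.83 FPKM. Exposed libraries lay below all controls in both photoperiods. The log2 fold changes were −0.46 ± 0.13 (limma adjusted p = 0.0242) and −0.99 ± 0.18 (limma adjusted p = 0.0197).

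These calls rested on single libraries more than those of gnat2 and pde6ha. Without dark control replicate 1 or 2, or dark replicate 2 or 3 at 25 µM, the adjusted p of grk7a in darkness was 0.0528 to 0.0673, and pde6c was lost with the last 3 of these (0.0528 to 0.0611), which left 2 genes called. Under the cycle grk7a was lost without control replicate 1 or 4 or without replicate 2 or 3 at 25 µM (0.0519 to 0.0761), which left 1 gene called. The calls of gnat2 and cnga3a in darkness and of pde6ha under the cycle held with each library left out.

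The second kinase, grk7b (ENSDARG00000055534, chromosome 18, 41740742 to 41754020), was at 1.96 to 2.24 FPKM in dark controls and 1.47 to 2.82 FPKM at 25 µM, and at 1.05 to 1.46 and 0.742 to 1.35 FPKM under the cycle. Its ranges overlapped in both, with fold changes of −0.06 ± 0.20 and −0.26 ± 0.22 (limma adjusted p = 0.873 and 0.619). Mean fragments per library were 34.5 and 38.8 in these dark groups and 30.5 and 22.8 in these cycle groups, for which counting alone gives a coefficient of variation of 16.1% to 21.0%.

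Neither cone arrestin was called in either photoperiod. For arr3a (ENSDARG00000056511, chromosome 10, 26800213 to 26811397) the dark controls held 42.2, 41.5, 36.8 and 35.6 FPKM and the dark libraries at 25 µM 51.0, 40.5, 31.5 and 53.7 FPKM. The exposed libraries reached both above and below the controls, and the fold change was 0.15 ± 0.19 (limma adjusted p = 0.619). Under the cycle the controls ranged from 34.2 to 65.8 FPKM and the exposed libraries from 44.1 to 70.6 FPKM, with a fold change of 0.19 ± 0.19 (limma adjusted p = 0.696).

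For arr3b (ENSDARG00000098475, chromosome 14, 32837914 to 32850768) the dark controls held 19.5, 18.7, 18.4 and 18.4 FPKM and the dark libraries at 25 µM 15.9, 15.2, 12.3 and 18.2 FPKM. No exposed library reached a control, but the fold change of −0.30 ± 0.12 did not pass (limma adjusted p = 0.107). It passed without dark replicate 4 at 25 µM (adjusted p = 0.0476). Under the cycle its 2 ranges, 11.6 to 19.2 and 12.6 to 17.5 FPKM, overlapped almost fully, and the value was 0.02 ± 0.18 (limma adjusted p = 0.966).

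The balance of the duplicated genes was compared within each library, where library scaling cancels apart from the added 0.1. The log2 ratio of arr3a to arr3b was 0.94 to 1.15 in dark controls and 1.35 to 1.68 at 25 µM, so the 4 exposed libraries lay above all controls. The difference of 0.45 had an exact two-sided permutation p of 0.0286, the smallest that 4 against 4 can give, and 0.114 after adjustment over the 4 ratio tests. Under the cycle the ratio was 1.58 ± 0.24 and 1.74 ± 0.20, a difference of 0.16 (exact permutation p = 0.314).

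The log2 ratio of grk7a to grk7b was 3.92 ± 0.039 in dark controls and 3.52 ± 0.61 at 25 µM (difference −0.40, exact permutation p = 0.171, adjusted 0.229). In dark controls grk7b had 33 to 36 fragments per library, for which counting alone gives a coefficient of variation of 17.0%. The SD of 0.039 is smaller than such counting error, so it does not show a tightly held ratio. Under the cycle it was 2.95 ± 0.30 and 2.22 ± 0.59 (difference −0.73, exact permutation p = 0.0571, adjusted 0.114). None of the 4 ratio differences passed after adjustment. A ratio at the smallest possible p still had an adjusted value of 0.114 here. This outcome therefore does not show that the ratios were unchanged.

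**Figure D3:**
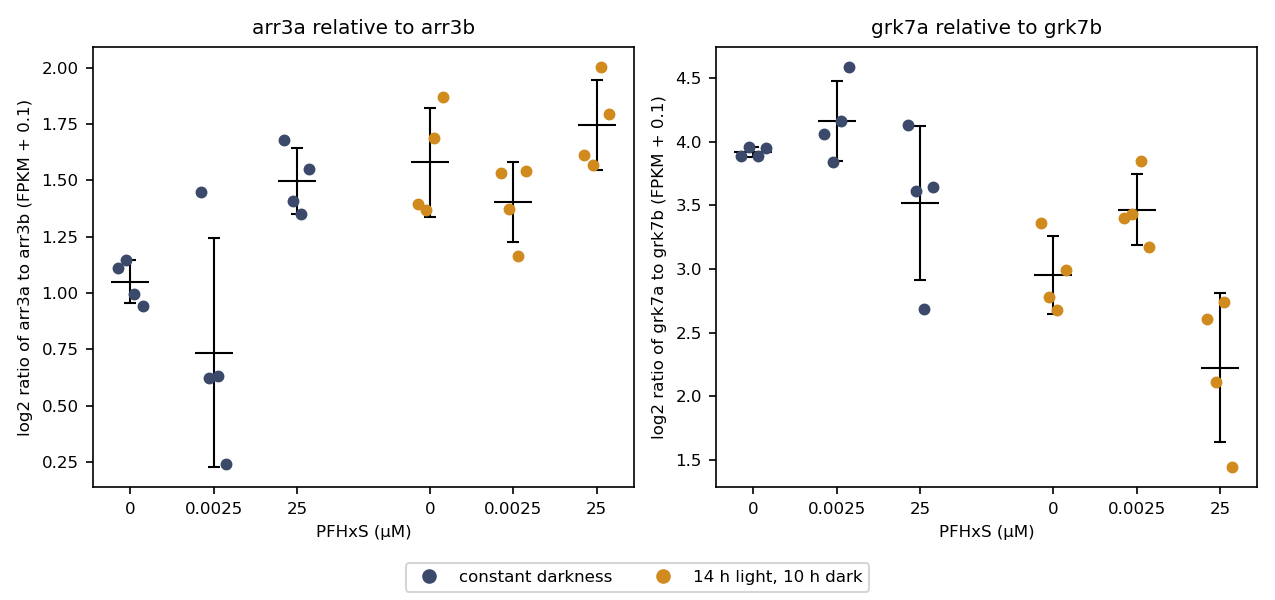
Log2 ratio within each library of arr3a to arr3b (left) and of grk7a to grk7b (right) on the y axis against PFHxS dose in µM, with 1 point per library and a bar for mean ± SD (n = 4). For the arrestins in darkness the 4 points at 25 µM (1.35 to 1.68) lie above the 4 controls (0.94 to 1.15), and for the kinases the groups overlap in both photoperiods.

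The effect of 25 µM differed between photoperiods for 1 of the 10 genes, pde6ha. Its effect under the cycle minus its effect in darkness was −1.35 ± 0.25 (limma adjusted p = 0.00586). Among 20145 genes tested on all 24 libraries, this difference was called negative for 0.973% and positive for 0.189%. With fragments scaled to library totals, 121 genes were called negative and 108 positive, against 196 and 38 here, and pde6ha was again called. For grk7a the difference was −0.52 ± 0.23, which did not pass (limma adjusted p = 0.310). The differences of the other 8 genes lay between −0.20 (grk7b) and 0.32 (arr3b), with limma adjusted p from 0.579 to 0.973. For gnat2 the 95% interval of the difference ran from −0.56 to 0.25, and for pde6c from −0.22 to 0.27.

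At 0.0025 µM no gene of the 10 was called in limma or in limma-voom in either photoperiod. Among all genes, 0.0105% fell and 0.0105% rose in darkness, and 0 of 18917 passed under the cycle. In darkness 2 of the 10 had an unadjusted p below 0.05, cnga3a at −0.38 ± 0.17 and gngt2b at 0.22 ± 0.095 (limma adjusted p = 0.670 and 0.638). Under the cycle it was 1 of 10, grk7b at −0.48 ± 0.22 (limma adjusted p = 0.882). The libraries of these 3 genes at 0.0025 µM did not overlap their controls, against 2.36% of all genes below and 2.19% above in darkness and 1.77% below and 1.33% above under the cycle.

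In level, cnga3a was at 2.90, 3.82, 3.49 and 3.86 FPKM in the dark at 0.0025 µM, so its dark means were 4.59, 3.52 and 2.59 FPKM from 0 to 25 µM. Its cycle means were 3.89, 4.19 and 2.41 FPKM, with a log2 fold change of 0.07 ± 0.20 at 0.0025 µM. In the dark at 0.0025 µM gngt2b was at 701, 723, 697 and 855 FPKM, above all controls. The median log2 fold change of the 10 genes at 0.0025 µM was −0.00057 in darkness and 0.04 under the cycle. The effect of 0.0025 µM differed between photoperiods for 0 of 10 genes, with 0 of 10 at an unadjusted p below 0.05 in limma and 0 called in limma-voom. Over all genes 0.00496% were called for that difference.

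Between the 2 doses, 25 µM against 0.0025 µM, 5 of the 10 genes were lower in darkness (9.42% of all genes, with 11.4% higher) and 4 under the cycle (0.624%, with 1.4% higher). These comparisons use the same libraries at 25 µM as those above. In darkness gnat2 was at −0.48 ± 0.10, grk7a at −0.61 ± 0.13, pde6c at −0.27 ± 0.080, gngt2b at −0.39 ± 0.095 and gnb3b at −0.33 ± 0.10 (limma adjusted p from 0.00448 to 0.0339). Under the cycle gnat2 was at −0.68 ± 0.16, grk7a at −1.01 ± 0.18, pde6c at −0.38 ± 0.087 and pde6ha at −1.21 ± 0.16 (limma adjusted p from 0.00366 to 0.0465). The genes gnat2, grk7a and pde6c were called lower than 0.0025 µM in both photoperiods. Of these, only grk7a kept its call in both with each library left out. With 1 library left out, gnat2 lost its call under the cycle in 6 of 8 fits. For pde6c this was 7 of 8 under the cycle and 5 of 8 in darkness. The other processing settings lost gnat2 in 3 of 7 and pde6c in 4 of 7 under the cycle. In darkness arr3a was at 0.55 ± 0.19, just short of the threshold (limma adjusted p = 0.0526), and limma-voom called it higher. The count in darkness was 3 without replicate 1, 2 or 4 at 0.0025 µM or replicate 2 at 25 µM, and that under the cycle was 2 without replicate 1, 2 or 4 at 0.0025 µM or replicate 2 or 3 at 25 µM.

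In controls without PFHxS, 6 of the 10 genes were higher in darkness than under the cycle and none was lower. Over all 20145 genes 9.24% were higher and 10.8% lower, which is 1862 against 2185 genes, or 2514 against 1545 with fragments scaled to library totals. The largest differences were in pde6ha at 1.80 ± 0.17, grk7a at 1.70 ± 0.16 and gnat2 at 1.25 ± 0.14, followed by gnb3b at 0.92 ± 0.14, grk7b at 0.73 ± 0.20 and pde6c at 0.62 ± 0.083 on the log2 scale. Values of arr3a (−0.23 ± 0.20), arr3b (0.30 ± 0.16), cnga3a (0.23 ± 0.19) and gngt2b (0.24 ± 0.13) did not pass. With fragments scaled to library totals gngt2b passed at 0.33 (limma adjusted p = 0.0379). At an unadjusted p below 0.05, 0 of the 10 were lower, and limma-voom called 6 higher and 0 lower, against 1991 higher and 2045 lower over all 20145 genes. All 4 dark controls lay above all 4 cycle controls for 7 of the 10 genes, the 7th being gngt2b, as for 11.9% of all genes. These levels are set across separately scaled tables, and photoperiod and library series cannot be told apart here.

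**Figure D4:**
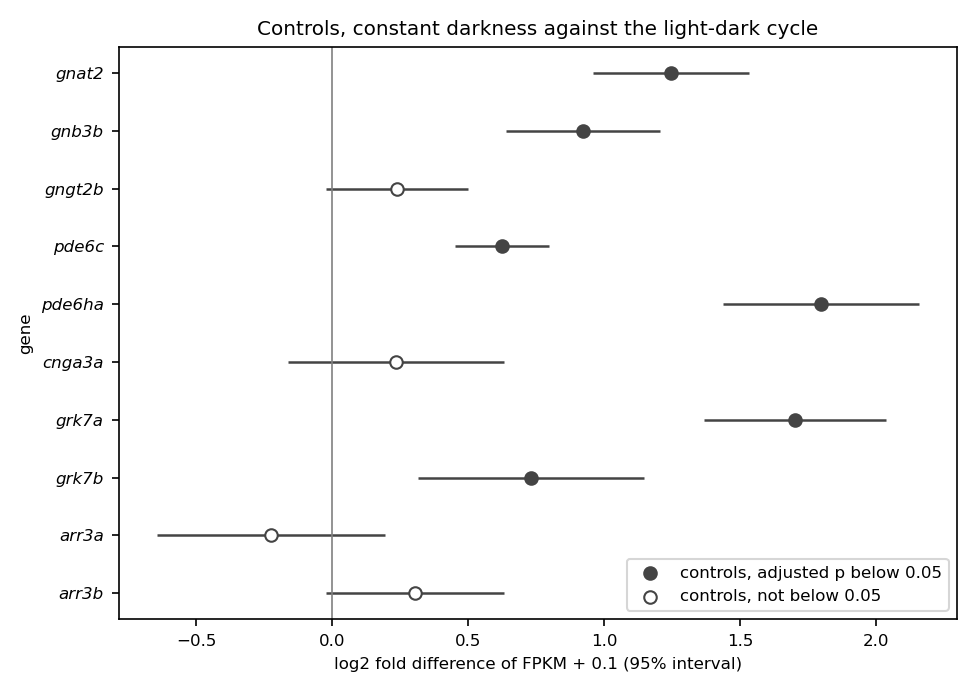
Log2 difference of FPKM + 0.1 between dark controls and cycle controls (x axis, positive where darkness is higher) for the 10 genes (y axis), with 95% intervals from limma over 24 libraries and filled symbols where the adjusted p was below 0.05. The 6 filled symbols run from 0.62 (pde6c) to 1.80 (pde6ha), and the open symbols of gngt2b, cnga3a, arr3a and arr3b have intervals that include 0.

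The gap between photoperiods by dose was widest for pde6ha. Its mean FPKM in darkness was 3.47 times that under the cycle in controls, 4.90 times at 0.0025 µM and 8.91 times at 25 µM. For grk7a the same ratios were 3.23, 3.56 and 4.71, and for gnat2 they were 2.36, 2.30 and 2.61. The dark means of pde6ha include replicate 4 at 131 FPKM at 0.0025 µM and replicate 3 at 101 FPKM at 25 µM. The remaining libraries lay at 80.0 to 83.4 and at 63.4 to 70.4 FPKM. For pde6ha the effect of 0.0025 µM did not differ between photoperiods at the threshold (−0.46 ± 0.25, limma adjusted p = 0.651). For arr3a the mean was lower in darkness at each dose, between 0.705 and 0.835 times the cycle mean, with overlapping libraries each time.

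Across the 24 libraries, log2 levels centred within each photoperiod were compared with the mean of the other 9 genes. Pearson's r was 0.949 for grk7a, 0.918 for gnat2, 0.874 for gnb3b and 0.849 for pde6c. It was 0.757 for gngt2b, 0.726 for cnga3a, 0.650 for pde6ha and 0.522 for arr3b, and it was −0.149 for arr3a and −0.194 for grk7b. For pde6ha it was 0.857 over the 12 cycle libraries and 0.112 over the 12 dark libraries. Of the 45 pairs, gnat2 and gnb3b were the most alike (r = 0.975), and both encode transducin subunits. These values describe libraries that share doses, depth and tissue make-up.

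Among 12907 other genes, the 8 most like the mean of the 10 by the same measure were grk1b (r = 0.901), slc25a3a (0.893), c8b (0.891), elovl4b (0.888), gc (0.883), dpys (0.866), leg1.1 (0.862) and comtd1 (0.840). The first, grk1b, encodes a further opsin kinase and belongs to the cone list below. The genes c8b, gc and leg1.1 are known for proteins made by the liver, and their part in the values of the 10 genes was not tested. In grk1b the dark controls held 29.5, 26.6, 24.8 and 24.2 FPKM and the dark libraries at 25 µM 21.7, 17.5, 13.3 and 21.6 FPKM. The groups did not overlap, as in grk7a.

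Other genes of the cone pathway were also measured. Of 20 further cone phototransduction genes tested in darkness at 25 µM, 5 fell and 0 rose (2 rose at an unadjusted p below 0.05, and limma-voom called 5 lower and 0 higher), with a median of −0.11, where 9.6% of all genes fell and 12.2% rose. Among them were rgs9a, which speeds the shut-off of transducin, at −0.68 ± 0.15, the channel subunit gene cngb3.2 at −0.65 ± 0.14 and grk1b at −0.53 ± 0.14 (limma adjusted p from 0.00495 to 0.0151). Of 5 cone opsins tested 2 fell, opn1sw1 at −0.61 ± 0.12 and the green opsin opn1mw1 at −0.54 ± 0.13, and 1 rose, the green opsin opn1mw2 at 0.91 ± 0.29 (limma adjusted p from 0.00302 to 0.0431). Under the cycle 1 of 19 further cone genes fell, the guanylate cyclase activator gene guca1g at −1.27 ± 0.25 (limma adjusted p = 0.03), with a median of −0.43 over the list, where 0.629% of all genes fell and 1.1% rose. At an unadjusted p below 0.05, for which no share of all genes was computed, 8 of these 19 were lower and 1 higher. By limma-voom 4 were lower and 0 higher, against 167 lower and 252 higher over all 18917 genes. Of 5 cone opsins 1 fell under the cycle, opn1mw2 at −1.73 ± 0.15 (limma adjusted p = 0.000251).

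Lists of genes named for photoreceptors in general, which include cones, for other eye cells and for the pineal were also counted. The shares of all genes set against them were the same (9.6% lower and 12.2% higher in darkness). The RNA came from whole larvae, so other tissues may add to the values of these genes, and their part was not tested. In darkness at 25 µM, 1 of 17 rod genes rose, the rod phosphodiesterase gamma gene pde6ga at 1.24 ± 0.21, and 0 fell in limma (3 at an unadjusted p below 0.05, and 2 in limma-voom). The rod opsin rho, at 1115 ± 38.8 FPKM (SD, n = 4) in dark controls and 862 ± 115 FPKM at 25 µM with all exposed libraries below all controls, had a fold change of −0.38 ± 0.13 that did not pass (limma adjusted p = 0.0597). Of 20 general photoreceptor genes 1 fell, the thyroid hormone receptor gene thrb at −0.44 ± 0.12, and 2 rose, the transcription factor gene six7 at 0.33 ± 0.11 and rbp4l at 0.45 ± 0.15. Of 18 inner retina genes 3 fell and 2 rose, including the ganglion cell factor atoh7 at −1.52 ± 0.34, cabp5a at 1.06 ± 0.18 and the glutamine synthetase gene glula at 0.46 ± 0.082. Of 14 lens genes the crystallin crygm2d12 rose (0.87 ± 0.14), and of 8 pineal genes asmt, an enzyme of melatonin synthesis, fell (−1.10 ± 0.21). Of 16 pigment epithelium and visual cycle genes 0 passed in limma (1 at an unadjusted p below 0.05 and 1 in limma-voom), with rpe65a at 0.15 ± 0.19 and pmela at 0.06 ± 0.071.

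Under the cycle at 25 µM none of the rod (16 tested), general photoreceptor (20), inner retina (17), pigment epithelium (16), lens (14) and pineal (8) genes passed in limma or limma-voom. With 0.629% of all genes lower and 1.1% higher, a count of 0 in lists of this size is near the background. Unadjusted p-values below 0.05 numbered 2, 3, 1, 3, 0 and 2 in these lists. Median log2 fold changes were 0.05, −0.06, −0.05, −0.26, −0.08 and −0.07 in the same order. The most abundant rod gene, rho, was at −0.16 ± 0.21, and gnat1, the rod counterpart of gnat2, at −0.06 ± 0.22. The others named by abundance were neurod1 (0.01 ± 0.080), syt5b (−0.02 ± 0.082), glula (0.17 ± 0.094), cahz (−0.05 ± 0.20), rpe65a (−0.34 ± 0.17), pmela (0.24 ± 0.12), crybb1 (−0.15 ± 0.099), crygm2d13 (−0.12 ± 0.092), aanat2 (−0.11 ± 0.13) and exorh (−0.15 ± 0.12).

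**Figure D5:**
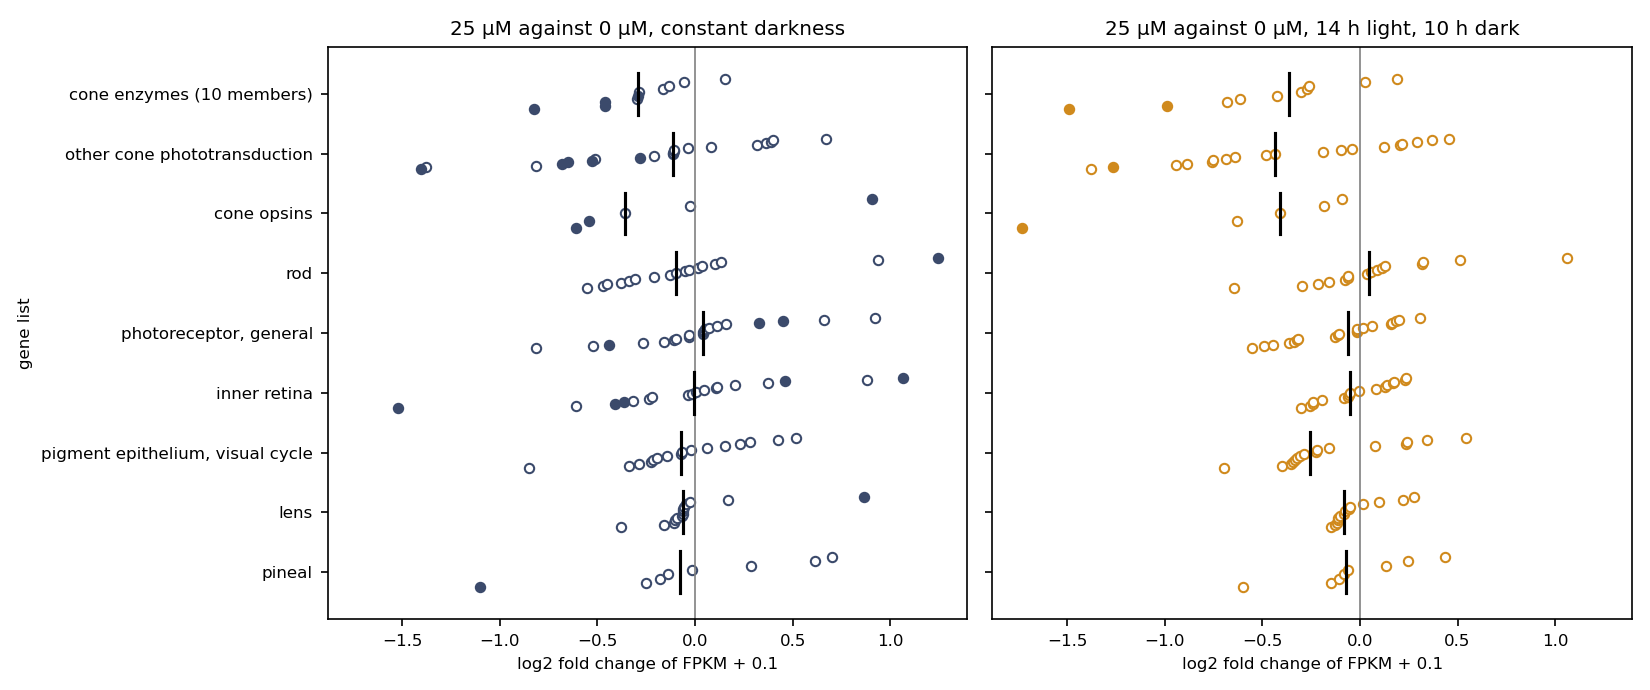
Log2 fold change of FPKM + 0.1 at 25 µM against controls (x axis) for each tested gene of 9 lists (y axis), in darkness (left) and under the cycle (right), with filled points where the limma adjusted p was below 0.05 and a vertical bar at each list's median. The medians in darkness and under the cycle are at −0.29 and −0.36 for the 10 cone genes and −0.11 and −0.43 for the other cone genes. They are at −0.36 and −0.41 for the cone opsins and −0.10 and 0.05 for the rod list.

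Summed over the list, the 8 cone opsins held 1889 to 2143 FPKM in dark controls and 1104 to 1728 FPKM at 25 µM, without overlap. Under the cycle they held 1324 to 1550 FPKM in controls and 873 to 1335 FPKM at 25 µM, with overlap. The 10 genes themselves summed to 1288 to 1407 FPKM in dark controls and 989 to 1305 FPKM in the dark at 25 µM. Under the cycle their sums were 808 to 997 and 523 to 840 FPKM, and the groups overlapped in both photoperiods. Of the mean sums in controls, gngt2b alone held 636 of 1338 FPKM in darkness and 540 of 900 FPKM under the cycle. The mean log2 level of the 10, in which each gene weighs alike, was 5.48 to 5.59 in dark controls and 5.10 to 5.40 at 25 µM. Under the cycle it was 4.62 to 4.95 and 4.02 to 4.50, so it did not overlap in either photoperiod. The list of 21 further cone genes summed to 135.7 to 154.2 and 105.8 to 125.0 FPKM in the same dark groups. Under the cycle it summed to 93.6 to 110.5 and 65.4 to 91.6 FPKM, so its sums did not overlap in either photoperiod. The mean log2 level of that list did not overlap in darkness (1.33 to 1.46 and 1.05 to 1.25) but did under the cycle (0.89 to 1.18 and 0.47 to 0.95). Rod genes summed to 1180 to 1280 and 898 to 1175 FPKM in the same dark groups, also without overlap, and to 995 to 1540 and 825 to 1636 FPKM under the cycle, with overlap. Of the rod sum, a mean of 1241 FPKM in dark controls, rho alone held 1115 FPKM. The mean log2 levels of the cone opsin list and of the rod list overlapped between controls and 25 µM in both photoperiods. Lens genes summed to 7378 to 7979 and 7259 to 7472 FPKM in darkness and to 7692 to 9102 and 6966 to 8046 FPKM under the cycle. The part of cone number in the values of the 10 genes was not tested.

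Both gnat2 and gnb3b are overlapped on the opposite strand by another gene in the coordinates of the tables. The overlap of gnat2 with ampd2b was 40 bases, and that of gnb3b with an unnamed gene model was 722 bases. Mean levels over all libraries were 7.39 FPKM for ampd2b against 166 FPKM for gnat2, and 17.8 FPKM for the gene model against 147 FPKM for gnb3b. Whether libraries kept the strand is not stated, so fragments of such overlapping pairs may have been shared. Sharing of fragments between the duplicates arr3a and arr3b or grk7a and grk7b was not tested.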

How the data were processed

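RNA sequencing covered 24 libraries of whole zebrafish at 120 hpf, in 6 groups of 4. The submitters' processing notes name HISAT2 2.0.5 (an aligner) and featureCounts 1.5.0-p3 (a counter). Genome build and annotation: not given in the sources used here. The authors deposited FPKM in 2 tables of 32520 genes, 1 per photoperiod and scaled separately. Whole fragments were recovered from FPKM and gene length for 100.0% of nonzero values (tolerance 0.001). The depth of 8.44 to 18.5 M fragments (M, mega) limits precision for genes with few fragments, and counting errors cover counting only.

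Values were tested as log2(FPKM + 0.1) with limma 3.58.1 in R 4.3.3 (intensity trend), for genes with at least 0.5 FPKM in at least 4 libraries, with Benjamini-Hochberg adjustment over all genes tested and a threshold of 0.05. Contrasts within a photoperiod used its 12 libraries, and those between photoperiods all 24. A test for raw counts was planned for tables of counts and not used, since the values are FPKM. Paralog ratios were compared by exact permutation (SciPy 1.17.1). The fit was tested on simulated data.

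The 10 genes, the other gene lists and the alternatives were chosen with earlier results of these data known. Every gene of the 10 is named; other lists name up to 3 genes with the smallest adjusted p below 0.05, or the 2 most abundant where none passed, at 25 µM against controls. Genes most alike were the 8 with the highest r among named genes with a mean of at least 1 FPKM in each photoperiod. Alternatives were limma-voom on recovered fragments, a pseudocount of 1, no filter, 2 other scalings, a replicate block, only the groups compared, and each library left out. Sequences were not used here.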

Additional observations from a re-analysis of the deposited data

Results flagged for a closer look

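Among 60 sets of 4 libraries (10 genes in 6 groups), 2 held a library far from the other 3, where chance flags about 1 in 20. Both were replicate 4 of the dark group at 0.0025 µM, with gngt2b at 855 FPKM (gap to the nearest library over the range 0.837) and pde6ha at 131 FPKM (0.935), while the other 3 libraries of pde6ha lay at 80.0 to 83.4 FPKM. The effect of 25 µM on pde6ha differed between the photoperiods, with a difference (cycle minus dark) of −1.35 ± 0.25 on the log2 scale (limma adjusted p = 0.00586), from −0.13 in darkness and −1.49 under the cycle.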

How the results depend on the processing

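Values of single genes that passed were recomputed under each setting. With all libraries, 144 such values kept their call and 10 lost it. With 1 library left out, 150 kept it and 34 lost it, and none of these values changed sign. For contrasts within darkness, 1 of the 2 other scalings, by median-of-ratios factors, gave the same counts over all genes as the main fit (1829 lower and 2318 higher at 25 µM against controls). Dark calls kept under that scaling therefore say nothing about stability. Values that had not passed gained a call 8 times with all libraries and 8 times with 1 left out. In 25 µM against controls under the cycle, 1 gene was lower when only the groups compared were fitted, grk7a being lost (adjusted p = 0.0736). In 25 µM against 0.0025 µM, that setting left 3 lower in darkness and 2 under the cycle, no filter left 2 under the cycle, and limma-voom added 1 higher in darkness. Over all genes the main fit called 1795 of 19058 lower and 2182 higher in darkness, and 118 of 18917 lower under the cycle. With only the groups compared, 1407 of 18311 were lower in darkness and 57 of 18245 under the cycle. No filter gave 91 of 26701 lower under the cycle, and limma-voom 2417 of 19058 higher in darkness. Leaving out 1 library gave 2 to 5 lower for 25 µM against controls in darkness and 1 to 3 under the cycle. For 25 µM against 0.0025 µM it gave 3 to 6 lower and 0 to 1 higher in darkness and 2 to 4 lower under the cycle. Counts over all genes with 1 library left out are not given, so these counts have no background. Replicate numbers are shared by the groups, but same-numbered libraries deviated together with r of only −0.118 to 0.113, so no strong pairing by number was visible. Libraries with different numbers were not compared, so a weak pairing could not be judged. With the number as a replicate block, 25 µM against 0.0025 µM had 1 gene higher in darkness and 2 lower under the cycle, gnb3b passed at 25 µM in darkness (adjusted p = 0.0406), and over all genes 63 fell and 99 rose at 25 µM under the cycle against 0.629% and 1.1% of the 18917 genes without it. For 25 µM against 0.0025 µM the block called 1962 of 19058 genes higher in darkness and 72 of 18917 lower under the cycle. For the 4 paralog ratios, the exact tests with a library left out or with the replicate block cannot reach the threshold and say nothing about stability. The cause of these moves was not tested. Depth limits grk7b most, with as few as 12 fragments in a library.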

Other observations

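Among the further cone genes, guca1g differed from most of the 10 in controls, being lower in darkness than under the cycle by a log2 difference of −2.04 ± 0.29 (limma adjusted p = 3.66e-05), while rcvrn3 (1.21 ± 0.088) and guca1c (2.43 ± 0.28) were higher in darkness. The green opsin opn1mw2 was at 5.24 ± 2.56 FPKM (SD, n = 4) in dark controls and 25.0 ± 4.11 FPKM in cycle controls, and at 25 µM at 9.34 ± 2.23 and 7.49 ± 1.66 FPKM. These genes were named after their values were seen, and photoperiod and library series cannot be told apart in them.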
